A study of Arabidopsis thaliana with 12 samples.

Results

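Glutathione S-transferases were followed in whole seedlings of Arabidopsis thaliana by RNA sequencing. The members were the genes of the deposited count table whose description contains the words glutathione S-transferase, 55 of 32673 genes. By symbol and description they comprised 28 tau, 12 phi, 3 theta and 2 zeta genes, 1 lambda gene, 1 microsomal gene, 6 genes of no named class and 2 subunit genes of the translation elongation factor eEF1B. The elongation factor genes entered only because their description names a C-terminal domain related to glutathione S-transferases. Relatives described in other words are not in the set.

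The 12 libraries formed 4 groups of 3. The groups were 35S::KNAT1 under PAC+GA3, 35S::KNAT1 under PAC, wild type under PAC+GA3 and wild type under PAC. Both genotypes were of the Nossen accession (No-0), and the 35S promoter, active in most tissues, drives KNAT1 in the overexpression line. All seedlings were 7 days old, spent 18 h in 10 µM paclobutrazol (PAC), an inhibitor of gibberellin synthesis, and then 5 h in 10 µM PAC either with 100 µM of the gibberellin GA3 or without it. No group was free of PAC, and the labels describe the line by its construct alone, so KNAT1 expression and any other difference between the lines cannot be told apart. Nothing in the labels tells if the replicates were separate cultures, and p-values here therefore reflect only how much these libraries vary, variation that may be technical.

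Glutathione S-transferases join the tripeptide glutathione to reactive electrophiles, among them herbicides and products of lipid oxidation, or use glutathione to reduce peroxides and oxidised metabolites. In plants the tau and phi classes are the large, plant-typical classes and include many genes induced by stress and xenobiotics, and conjugates are moved into the vacuole by ABCC transporters. Zeta enzymes act in tyrosine breakdown as maleylacetoacetate isomerases, theta enzymes have peroxidase activity and lie mostly in peroxisomes, and lambda enzymes act as reductases rather than conjugating enzymes.

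Each library held between 9232836 and 14053594 counts, and 19879 genes had enough of them to be tested. KNAT1 stood between 399 and 483 CPM (read counts scaled for library size by the TMM method) in 35S::KNAT1 under PAC+GA3 and between 389 and 449 under PAC, against 21.6 to 22.5 and 17.6 to 24.6 in wild type, so the libraries went with their genotype labels. An rRNA gene took 0.347% to 1.43% of counts in 3 libraries (35S::KNAT1 PAC+GA3 replicate 1 and wild-type PAC replicates 2 and 3) and 0.11% to 0.197% in the other libraries. These 3 are called the rRNA-rich libraries.

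Of the 55 members, 47 could be tested and 8 had too few counts. These 8 were GSTF3, GSTF5, GSTU12, GSTU15, GSTU21, GSTZ2, AT1G19550 and AT5G44990, with 0 to 75 counts summed over all libraries. GSTU21 was the only member with a count of 0 in every library. Levels were compared between genes per kb of coding length. GSTF9 was highest at a mean of 1701 CPM per kb, followed by GSTU19, a tau enzyme inducible by herbicide safeners, at 1298 and GSTF10 at 921. GSTF2, which binds the defence compound camalexin and other indoles, stood at 883 CPM per kb. Next came the elongation factor subunit gene eEF-1Bb1 at 650, GSTU20, whose protein binds the jasmonate-conjugating enzyme FIN219/JAR1, at 601, and GSTF8, known for a stress-responsive promoter, at 421 CPM per kb. GSTU7 was the third tau gene at 123 CPM per kb. GSTF9, GSTU19 and GSTF10 together held 44.5% of the members' CPM, and the 7 most abundant members held 75.8%.

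Summed over all members, the level was 6306 ± 527 CPM in 35S::KNAT1 under PAC+GA3 and 5883 ± 284 CPM under PAC, against 5633 ± 453 CPM and 5162 ± 318 CPM in wild type (SD, n = 3 each). The library ranges of the genotypes overlapped under PAC+GA3 and did not under PAC, where the lowest 35S::KNAT1 library had 5662 CPM and the highest wild-type library 5527 CPM. The phi genes summed to 3296 ± 396 and 2870 ± 257 CPM in 35S::KNAT1, against 2636 ± 343 and 2374 ± 189 CPM in wild type, under PAC+GA3 and PAC in that order. For the tau genes these sums were 1888 ± 122 and 1875 ± 186 CPM in 35S::KNAT1, against 1850 ± 37.1 and 1688 ± 102 CPM in wild type. Sums follow the few abundant genes, so they say little about the other members.

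The genotype comparison asked which members differed between KNAT1-overexpressing and wild-type seedlings, in each medium. Under PAC+GA3, 12 of the 47 tested members were higher in 35S::KNAT1 (25.5%) and 4 were lower (8.51%), where 12% of all tested genes were higher and 13.6% lower. Under PAC, 14 members were higher (29.8%) and 3 lower (6.38%), where 12.3% of all tested genes were higher and 12.9% lower. A gene was called where edgeR's quasi-likelihood test gave a p below 0.05 after Benjamini-Hochberg adjustment over the whole table. Among them 11 members were higher in both media: the tau genes GSTU1, GSTU2, GSTU3, GSTU14, GSTU24 and GSTU25, the phi genes GSTF6, GSTF7, GSTF10 and GSTF14, and AT5G42150. Lower in both media were GSTU18, GSTL3 and GSTZ1. How many of all tested genes were called the same way in both media was not counted, so these shared calls have no background beside them.

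By class, 7 of 25 tested tau genes were higher and 2 lower under PAC+GA3, and 7 were higher and 1 lower under PAC. Of 10 tested phi genes 4 were higher in each medium and the other 6 did not pass. Of the 12 others, 1 was higher and 2 lower under PAC+GA3, and 3 were higher and 2 lower under PAC. The median log2 difference was 0.43 under PAC+GA3 and 0.37 under PAC for phi genes, 0.10 and 0.23 for tau genes, -0.01 and -0.01 for the others, and 0.01 and 0.00 for all genes tested. The tau median turned on single libraries, and under PAC+GA3 it was 0.01 without 35S::KNAT1 replicate 1 and 0.25 without wild-type replicate 3. Under PAC it was 0.16 without 35S::KNAT1 replicate 1 and 0.32 without its replicate 2. With a stricter filter on low counts it was 0.00 under PAC+GA3 and 0.07 under PAC. Without the 3 rRNA-rich libraries 49 members were tested. Of these 9 were higher (18.4%) and 6 lower (12.2%) under PAC+GA3, where 9.53% of all genes were higher and 11.1% lower. Under PAC 7 were higher (14.3%) and 1 lower (2.04%), where 5.86% of all genes were higher and 6.85% lower, so fewer genes were called in the whole table too. Wild type under PAC then rested on 1 library, assumed to vary like the other groups. Scaling to total counts moved the median of all genes to 0.115 under PAC+GA3 and 0.099 under PAC. Under PAC+GA3 it gave 4007 higher genes (20.2%) and 2019 lower genes (10.2%), against 2382 and 2695 with TMM, and 16 higher and 4 lower members.

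**Figure D1:**
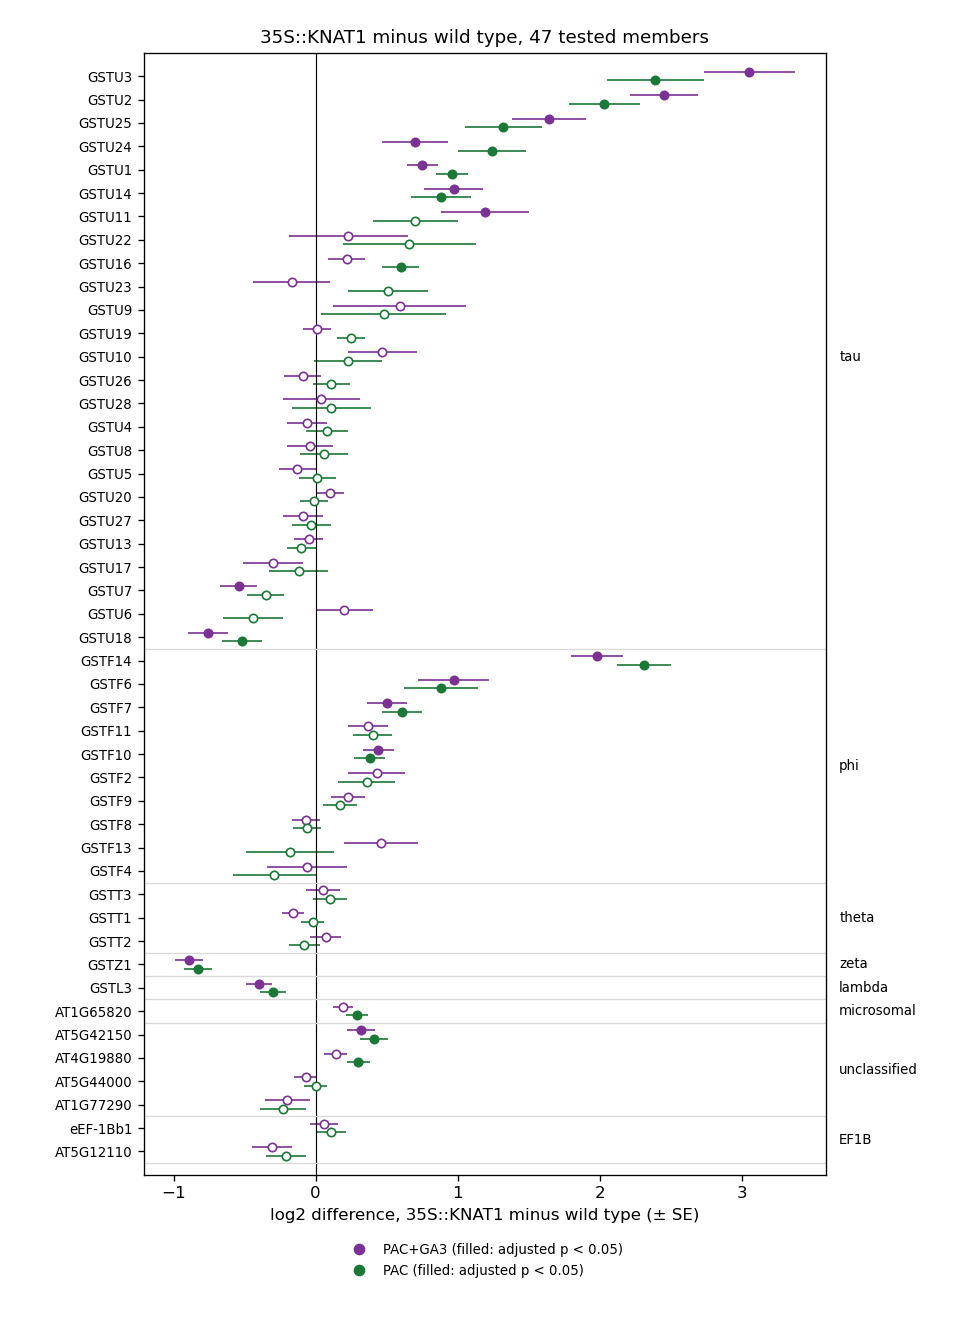
Log2 difference of each of the 47 tested members, 35S::KNAT1 minus wild type, under PAC+GA3 (upper, purple) and PAC (lower, green), with bars for the SE and filled circles for an edgeR adjusted p below 0.05. Members are grouped by class; GSTU3, GSTU2 and GSTF14 lie farthest to the right and GSTZ1 farthest to the left.

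Tissue markers moved with the genotype. All 8 green shoot markers fell in 35S::KNAT1 in both media, and their summed level was 18033 to 22681 CPM under PAC+GA3 and 17419 to 22567 under PAC, against 36675 to 47058 and 37252 to 39469 CPM in wild type. Without the rRNA-rich libraries 6 of the 8 passed under PAC. Of 7 root markers 3 rose in both media, EXPA7, RHD6 and TIP2-3. Without the rRNA-rich libraries 2 of these passed under PAC+GA3 and 1 under PAC, and 1 also passed under PAC without wild-type replicate 2 alone, while TIP2-3 kept its call in all 20 alternatives. The root list summed to 127 to 165 and 120 to 126 CPM in 35S::KNAT1, against 66.2 to 110 and 70 to 88.7 CPM in wild type. Of all tested genes, 12% were higher and 13.6% lower under PAC+GA3, and 12.3% and 12.9% under PAC. The share called in both media was not counted. No marker of either list was at 0 in all libraries of a group. Their part in the differences between genotypes described here was not tested, and in whole seedlings fewer cells of a type and less RNA per cell cannot be told apart.

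The largest tau differences lay in a run of 7 tau genes on chromosome 2, from 12617936 to 12632538 (RefSeq annotation of TAIR10.1), which holds GSTU7, GSTU6, GSTU5, GSTU4, GSTU3, GSTU2 and GSTU1 in map order, all on the minus strand. Members of a run lie within 15 kb of the next. Each of these genes, like all 28 tau members, has 2 annotated exons. GSTU1, GSTU2 and GSTU3, the neighbours at one end of the run, were higher in 35S::KNAT1 in both media. GSTU4, GSTU5 and GSTU6 in the middle did not pass in either medium, and GSTU7 at the other end was lower under PAC+GA3.

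GSTU3 stood at 5.22, 5.29 and 6.31 CPM in 35S::KNAT1, against 0.804, 0.823 and 0.364 CPM in wild type, under PAC+GA3, and 3.1, 4 and 4.23 CPM in 35S::KNAT1, against 0.52, 1.27 and 0.376 CPM in wild type, under PAC. The lowest 35S::KNAT1 library lay above the highest wild-type library in each medium, on raw counts of 36 to 72 and 4 to 13 reads. The log2 difference was 3.05 ± 0.32 (SE) under PAC+GA3 (edgeR adjusted p = 1.2e-06) and 2.39 ± 0.34 under PAC (adjusted p = 3.81e-05), or 8.27-fold and 5.22-fold. Its neighbour GSTU2 had 5.96, 6.99 and 5.87 CPM in 35S::KNAT1, against 1.1, 1.54 and 0.818 CPM in wild type, under PAC+GA3, and 4.91, 4.32 and 4.87 CPM in 35S::KNAT1, against 1.47, 0.78 and 1.13 CPM in wild type, under PAC. Again the genotypes did not overlap, on raw counts of 46 to 78 reads in 35S::KNAT1 and 8 to 17 in wild type. The log2 difference was 2.45 ± 0.24 (SE, edgeR adjusted p = 5e-07) and 2.03 ± 0.25 (adjusted p = 8.07e-06). GSTU1, at the end of the run, had 36.6, 34.1 and 34.3 CPM in 35S::KNAT1, against 22.4, 18.5 and 21.3 CPM in wild type, under PAC+GA3, and 39.6, 28.6 and 33.7 CPM in 35S::KNAT1, against 17.9, 16.9 and 17.6 CPM in wild type, under PAC. It was the most abundant of the trio at a mean of 39.7 CPM per kb, against 4.89 for GSTU2 and 3.97 for GSTU3, and its difference was smaller, at 0.75 ± 0.11 (SE, edgeR adjusted p = 5.47e-05) under PAC+GA3 and 0.96 ± 0.11 (adjusted p = 5.09e-06) under PAC. These 3 genes kept their calls in all 20 alternatives tried, in both media. GSTU1 and GSTU2 are 81.3% identical in their protein and share an exact run of 35 coding bases at most. Whether reads of one were counted for the other was not tested.

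At the far end, GSTU7 stood at 73.3, 68.6 and 76.6 CPM in 35S::KNAT1, against 107, 103 and 107 CPM in wild type, under PAC+GA3, and 89.7, 55.4 and 63.9 CPM in 35S::KNAT1, against 99.6, 82.8 and 83.7 CPM in wild type, under PAC. All 3 35S::KNAT1 libraries lay below all wild-type libraries under PAC+GA3, where the log2 difference was -0.54 ± 0.13 (SE, edgeR adjusted p = 0.0075). Under PAC replicate 1 of 35S::KNAT1 lay among the wild-type libraries, and the difference of -0.35 ± 0.13 did not pass (adjusted p = 0.0718). Without that library it was -0.57 (adjusted p = 0.00068). A block for the replicate number also let it pass, at -0.36 (adjusted p = 0.0128). The middle genes differed by -0.06 ± 0.14 (GSTU4), -0.13 ± 0.13 (GSTU5) and 0.20 ± 0.20 (GSTU6) under PAC+GA3, and by 0.08 ± 0.15, 0.01 ± 0.13 and -0.44 ± 0.21 under PAC (SE), with edgeR adjusted p from 0.132 to 0.953. Of the other genes within 20 kb of the run, 14 were tested, of which 5 were higher and 3 lower under PAC+GA3 and 2 were higher and 2 lower under PAC. Over all genes tested, 12% were higher and 13.6% lower under PAC+GA3, and 12.3% and 12.9% under PAC.

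**Figure D2:**
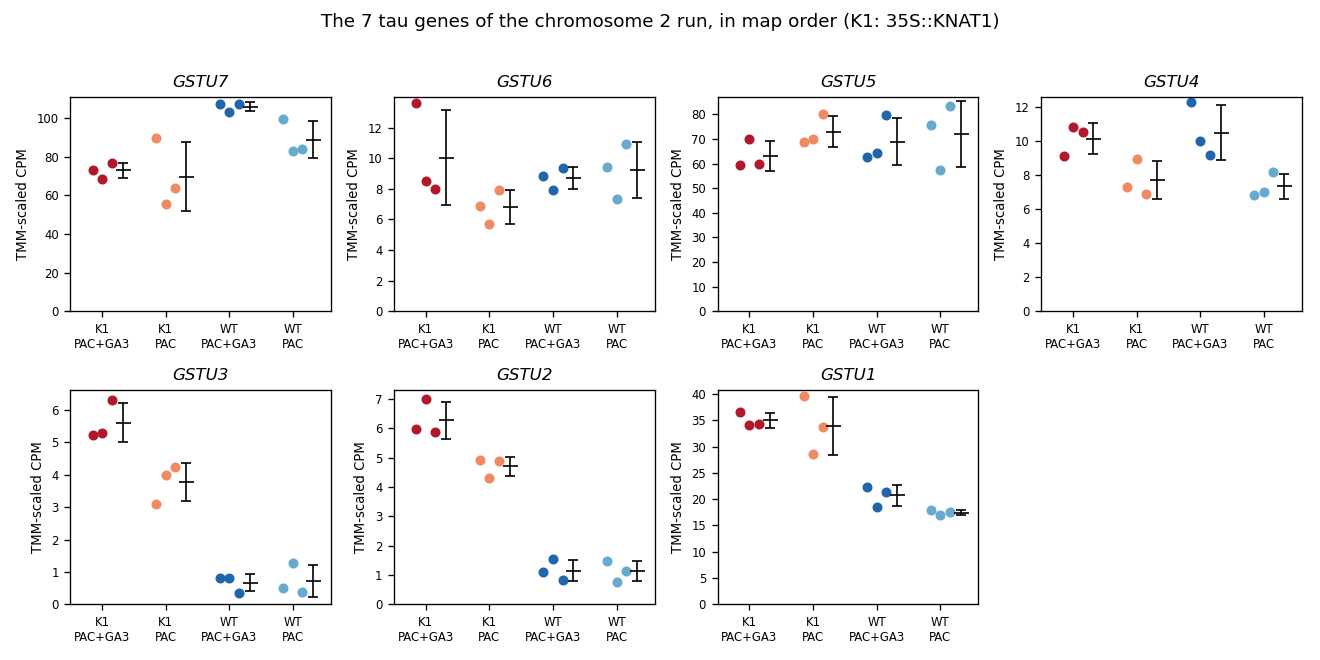
TMM-scaled CPM of the 7 tau genes of the chromosome 2 run in each library, with the mean and SD beside each group and axes that start at 0. For GSTU3, GSTU2 and GSTU1 the 35S::KNAT1 libraries (red and orange) lie above all wild-type libraries (blue), and for GSTU7 they lie lower under PAC+GA3.

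The upstream sequences of these neighbours are shown because genes that lie next to each other in the run differed in response. TGACG is the core letters bound by TGA transcription factors, bZIP proteins that act on many glutathione S-transferase genes, and a pair of TGACG copies about a helical turn apart forms the as-1 type of element. In the 250 bases before the annotated start (RefSeq, TAIR10.1, given 5′ to 3′ on the gene's strand), any TGACG of either strand is in capitals. GSTU4, which did not pass in either medium, is set beside GSTU1 and GSTU3.
GSTU1, chr2:12632539-12632788, minus strand: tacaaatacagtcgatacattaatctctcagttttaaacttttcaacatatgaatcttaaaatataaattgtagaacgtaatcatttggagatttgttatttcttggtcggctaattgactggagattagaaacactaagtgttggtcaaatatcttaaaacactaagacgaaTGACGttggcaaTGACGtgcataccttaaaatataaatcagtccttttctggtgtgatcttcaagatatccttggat
GSTU3, chr2:12629641-12629890, minus strand: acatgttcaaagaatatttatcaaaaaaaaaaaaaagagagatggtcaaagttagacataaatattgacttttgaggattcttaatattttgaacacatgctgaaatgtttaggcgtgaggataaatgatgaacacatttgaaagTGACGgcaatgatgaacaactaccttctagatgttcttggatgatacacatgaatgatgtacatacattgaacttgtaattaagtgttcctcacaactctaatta
GSTU4, chr2:12627892-12628141, minus strand: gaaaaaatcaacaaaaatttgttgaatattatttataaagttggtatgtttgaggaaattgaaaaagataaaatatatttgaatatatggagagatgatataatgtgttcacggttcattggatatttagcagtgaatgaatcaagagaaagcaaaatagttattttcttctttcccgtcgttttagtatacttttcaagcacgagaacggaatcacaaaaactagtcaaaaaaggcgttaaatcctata
GSTU1 held 2 copies, whose first bases lay 65 and 77 bases before the start, and GSTU3 held 1 copy at 105 bases. GSTU4 held none in this window. The window of GSTU2 overlaps the GSTU1 gene and is not shown. GSTU7, the member of the run that was lower under PAC+GA3, held 3 copies in a window that overlaps another annotated gene. GSTU5 and GSTU6, which did not pass in either medium, held 1 copy each, GSTU5 in a window that overlaps another annotated gene. The motif was present both in genes of the run that passed and in genes that did not. Whether it bears on their differences was not tested.

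Over all members, 16 of 55 (29.1%) held TGACG on either strand of this window, against 18.6% of 27438 protein-coding genes. At least 2 copies were present in 3 members (5.45%) and in 3.21% of all genes. Among members higher in 35S::KNAT1 the motif was present in 6 of 12 under PAC+GA3 and 5 of 14 under PAC. It was present in 1 of 4 and 0 of 3 members called lower, and in 8 of 31 and 10 of 30 not called. Windows that overlap other annotated genes were counted too. TGACAG, letters bound by class I KNOX homeodomain proteins such as KNAT1, was present in 3 members (5.45%), GSTF14, GSTU14 and GSTU26, against 5.86% of all genes. These matches are letters in the Columbia-derived build, not bound sites, and No-0 may differ from it.

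GSTU24 and GSTU25, tau enzymes known for detoxifying the explosive TNT, are neighbours in a run of 3 on chromosome 1 (5869543 to 5876620) that ends with GSTU26. GSTU25 stood at 12.6, 13.8 and 11.8 CPM in 35S::KNAT1, against 3.14, 4.63 and 4.64 CPM in wild type, under PAC+GA3, and 14.7, 8.89 and 6.35 CPM in 35S::KNAT1, against 3.21, 4.58 and 4.33 CPM in wild type, under PAC. The genotypes did not overlap, and the log2 difference was 1.64 ± 0.26 (SE, edgeR adjusted p = 0.00023) under PAC+GA3 and 1.32 ± 0.27 (adjusted p = 0.00181) under PAC. GSTU24 had 78, 59.1 and 69 CPM in 35S::KNAT1, against 49.2, 39.3 and 37.7 CPM in wild type, under PAC+GA3, and 96.3, 49.4 and 68.6 CPM in 35S::KNAT1, against 35.4, 24.2 and 30.7 CPM in wild type, under PAC. Its difference was 1.24 ± 0.24 (SE, edgeR adjusted p = 0.00323) under PAC and 0.70 ± 0.23 (adjusted p = 0.0494) under PAC+GA3. The call under PAC+GA3 was close to the threshold and was lost in 12 of 20 alternatives, among them leaving out any library of the groups compared in turn (0.60 to 0.83, adjusted p 0.0516 to 0.153). Without the 3 rRNA-rich libraries the PAC difference of GSTU24 was 1.01 and did not pass (adjusted p = 0.101). GSTU26 did not pass, at -0.09 ± 0.13 and 0.11 ± 0.13 (SE, edgeR adjusted p = 0.676 and 0.609).

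GSTU25 is printed here since it had the largest rise outside the chromosome 2 run among tau genes, with its single TGACG, which starts 87 bases before the annotated start, in capitals.
GSTU25, chr1:5871774-5872023, plus strand: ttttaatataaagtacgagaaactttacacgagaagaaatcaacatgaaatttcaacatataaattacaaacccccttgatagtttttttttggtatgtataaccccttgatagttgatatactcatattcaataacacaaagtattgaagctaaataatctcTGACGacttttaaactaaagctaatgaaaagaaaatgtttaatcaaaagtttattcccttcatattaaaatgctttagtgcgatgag

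Of the remaining called tau genes, GSTU14 was higher in both media. It stood at 6.38, 5.29 and 5.43 CPM in 35S::KNAT1, against 3, 2.57 and 3.09 CPM in wild type, under PAC+GA3, and 5.95, 6.53 and 4.65 CPM in 35S::KNAT1, against 2.34, 2.83 and 4.23 CPM in wild type, under PAC. Its log2 difference was 0.97 ± 0.21 (SE, edgeR adjusted p = 0.00223) and 0.88 ± 0.21 (adjusted p = 0.00508), with no overlap between genotypes, while its neighbour GSTU13 on chromosome 1, an enzyme of the indole glucosinolate pathway, did not pass at -0.05 ± 0.10 and -0.10 ± 0.10 (SE, edgeR adjusted p = 0.77 and 0.527). GSTU16 differed by 0.60 ± 0.13 under PAC (edgeR adjusted p = 0.00244) and by 0.22 ± 0.13 under PAC+GA3 (adjusted p = 0.261). Its PAC difference was 0.65 without the 3 rRNA-rich libraries (adjusted p = 0.0509). GSTU11 differed by 1.19 ± 0.31 under PAC+GA3 (edgeR adjusted p = 0.00746) and by 0.70 ± 0.30 under PAC (adjusted p = 0.0972), on 6 to 26 reads a library. No difference between media was called for either gene, so a call in a single medium does not show that the media differed.

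GSTU18 was the tau gene that was lower in both media, at 15.1, 14.9 and 16.4 CPM in 35S::KNAT1, against 22.5, 30.4 and 25.9 CPM in wild type, under PAC+GA3, and 12.9, 17.5 and 20.9 CPM in 35S::KNAT1, against 24.3, 23.5 and 25.3 CPM in wild type, under PAC. All 35S::KNAT1 libraries lay below all wild-type libraries, and the log2 difference was -0.76 ± 0.14 (SE, edgeR adjusted p = 0.000621) and -0.52 ± 0.14 (adjusted p = 0.012). Under PAC it was -0.35 without 35S::KNAT1 replicate 1 (adjusted p = 0.0687) and -0.51 without the 3 rRNA-rich libraries (adjusted p = 0.158). GSTU17, a gene of drought and salt stress signalling, did not pass at -0.30 ± 0.21 and -0.12 ± 0.21 (SE, edgeR adjusted p = 0.355 and 0.723). Without the rRNA-rich libraries its PAC+GA3 difference was -0.46. The spans of GSTU17 and GSTU18 overlap in RefSeq but not by the gene positions deposited with the counts. How reads from that stretch were assigned is not known here. Both abundant tau genes also missed the threshold. GSTU19 differed by 0.01 ± 0.10 under PAC+GA3 and 0.25 ± 0.10 under PAC (edgeR adjusted p = 0.952 and 0.0891), and GSTU20 by 0.10 ± 0.10 and -0.01 ± 0.10 (adjusted p = 0.497 and 0.956). For GSTU19 under PAC the difference passed with the replicate block (0.25, adjusted p = 0.039), without 35S::KNAT1 replicate 2 (0.35, 0.0268) and with scaling to total counts (0.34, 0.00917). The remaining 7 tested tau genes, GSTU8, GSTU9, GSTU10, GSTU22, GSTU23, GSTU27 and GSTU28, did not pass, with log2 differences of -0.17 to 0.59 under PAC+GA3 and -0.03 to 0.66 under PAC (edgeR adjusted p from 0.167 to 0.935).

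Among phi genes, GSTF14 (chr1:18458526-18459969) had the largest difference, at 48.1, 45.9 and 43.2 CPM in 35S::KNAT1, against 13.2, 11.2 and 10.2 CPM in wild type, under PAC+GA3, and 47.9, 28.2 and 33.3 CPM in 35S::KNAT1, against 7.89, 5.76 and 8.37 CPM in wild type, under PAC. The highest wild-type library of either medium lay below the lowest 35S::KNAT1 library. The log2 difference was 1.98 ± 0.18 (SE, edgeR adjusted p = 1.33e-06) under PAC+GA3 and 2.31 ± 0.19 (adjusted p = 6.22e-07) under PAC, or 3.94-fold and 4.96-fold, and the call held in all 20 alternatives. Its upstream window is shown because it is the strongest phi change and holds the letters TGACAG, in capitals, which start 37 bases before the annotated start. The same letters stand upstream of GSTU14, which was higher in both media, and of GSTU26, which did not pass. A role for them was not tested.
GSTF14, chr1:18458276-18458525, plus strand: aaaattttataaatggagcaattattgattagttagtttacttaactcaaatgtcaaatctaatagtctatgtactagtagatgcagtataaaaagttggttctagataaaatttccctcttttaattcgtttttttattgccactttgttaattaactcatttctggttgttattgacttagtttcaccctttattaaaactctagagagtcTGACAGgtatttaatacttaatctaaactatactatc

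GSTF10 was the abundant phi gene that passed. It stood at 814, 661 and 681 CPM in 35S::KNAT1, against 550, 540 and 505 CPM in wild type, under PAC+GA3, and 589, 640 and 703 CPM in 35S::KNAT1, against 545, 437 and 498 CPM in wild type, under PAC. The genotypes did not overlap in either medium. The log2 difference was 0.44 ± 0.11 (SE, edgeR adjusted p = 0.00508) and 0.38 ± 0.11 (adjusted p = 0.012). Under PAC the call was lost without wild-type replicate 2 (0.30, adjusted p = 0.0782), without 35S::KNAT1 replicate 3 (0.32, adjusted p = 0.064) and without the 3 rRNA-rich libraries (0.24, adjusted p = 0.301). Its neighbour GSTF9, the most abundant member and 80.0% identical in protein, had 0.23 ± 0.12 and 0.17 ± 0.12 (SE, edgeR adjusted p = 0.177 and 0.336), and passed under PAC+GA3 with scaling to total counts (0.33, 0.0312). GSTF2 had 0.43 ± 0.20 and 0.36 ± 0.20 (adjusted p = 0.154 and 0.234), with overlapping libraries in both media. GSTF8 had -0.07 ± 0.10 and -0.06 ± 0.10 (adjusted p = 0.693 and 0.714). GSTF11 lay just outside the threshold, at 0.37 ± 0.14 and 0.40 ± 0.14 (adjusted p = 0.0705 and 0.0511). Under PAC it passed with the replicate block (0.40, adjusted p = 0.03), with scaling to total counts (0.49, 0.0155), and without 35S::KNAT1 replicate 2 (0.49, 0.0384) or wild-type PAC+GA3 replicate 1 or 3 (0.40 each, 0.041 and 0.0385). Under PAC+GA3 it passed with scaling to total counts (0.47, 0.0199), with the block (0.37, 0.043) and without wild-type replicate 1 (0.49, 0.0297). GSTF4 had -0.06 ± 0.28 and -0.29 ± 0.29 and GSTF13 0.46 ± 0.26 and -0.18 ± 0.31 (SE), and neither passed.

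GSTF6, which acts in camalexin synthesis, and GSTF7 lie side by side on chromosome 1 (661088 to 662475 and 658578 to 659980) in a run with GSTF5 and GSTF4. They are described together, outside the naming rule and with their values known, because their coding sequences are nearly alike. GSTF6 stood at 177, 88.4 and 103 CPM in 35S::KNAT1, against 69.3, 63.5 and 55.1 CPM in wild type, under PAC+GA3, and 121, 98.2 and 119 CPM in 35S::KNAT1, against 74.4, 48.4 and 61.3 CPM in wild type, under PAC. Its log2 difference was 0.97 ± 0.25 (SE, edgeR adjusted p = 0.0193) under PAC+GA3 and 0.88 ± 0.26 (adjusted p = 0.0323) under PAC, with no overlap. Replicate 1 of 35S::KNAT1 under PAC+GA3, an rRNA-rich library, was the highest at 177 CPM, and without it the difference was 0.61 (adjusted p = 0.0117). GSTF7 had 96.5, 62.9 and 76.1 CPM in 35S::KNAT1, against 62.5, 50 and 54.1 CPM in wild type, under PAC+GA3, and 76.3, 65.1 and 79.7 CPM in 35S::KNAT1, against 53, 41.7 and 49.7 CPM in wild type, under PAC. Its differences were 0.50 ± 0.14 (SE, edgeR adjusted p = 0.0181) and 0.61 ± 0.14 (adjusted p = 0.00557), and the libraries of the genotypes did not overlap.

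Some of these calls rested on single libraries. Under PAC+GA3 the GSTF7 call was lost without wild-type replicate 2 (0.43, adjusted p = 0.0829), wild-type replicate 3 (0.48, 0.0652) and 35S::KNAT1 replicate 1 (0.32, 0.0895), and the GSTF6 call without wild-type replicates 2 and 3 (0.98 and 0.89, adjusted p = 0.0601 and 0.0788). Without the 3 rRNA-rich libraries GSTF7 stood at 0.32 and 0.48 (adjusted p = 0.0743 and 0.0587). Under PAC the GSTF6 call was lost without wild-type replicates 2 and 3, wild-type PAC+GA3 replicate 2, and 35S::KNAT1 replicates 1 and 3, at 0.73 to 0.88 and adjusted p of 0.0518 to 0.099. The 2 coding sequences are 94.3% identical with an exact shared run of up to 116 bases, and the proteins are 93.3% identical, so how the reads were divided between them is uncertain.

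The first 90 coding bases of both phi pairs over 90% identical (RefSeq, TAIR10.1) show how little separates them, with the bases that differ from the partner in capitals.
GSTF6: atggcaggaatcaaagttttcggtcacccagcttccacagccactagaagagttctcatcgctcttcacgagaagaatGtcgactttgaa
GSTF7: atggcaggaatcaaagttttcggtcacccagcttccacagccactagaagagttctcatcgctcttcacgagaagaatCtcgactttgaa
GSTF2: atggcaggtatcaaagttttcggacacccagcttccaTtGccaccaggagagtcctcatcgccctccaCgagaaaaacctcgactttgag
GSTF3: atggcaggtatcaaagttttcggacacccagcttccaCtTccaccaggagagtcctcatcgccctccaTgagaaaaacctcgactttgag
GSTF6 and GSTF7 differ at 1 of these 90 positions, and GSTF2 and GSTF3 at 3. GSTF2 lies on chromosome 4 and GSTF3 on chromosome 2, and their whole coding sequences are 94.5% identical with a shared run of up to 74 bases. GSTF3 had 1 to 7 reads in every library, 35 in all, and was not tested, while GSTF2 was among the most abundant members. Whether reads shared by the pair were assigned to GSTF2 is not given in the sources used here.

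**Figure D3:**
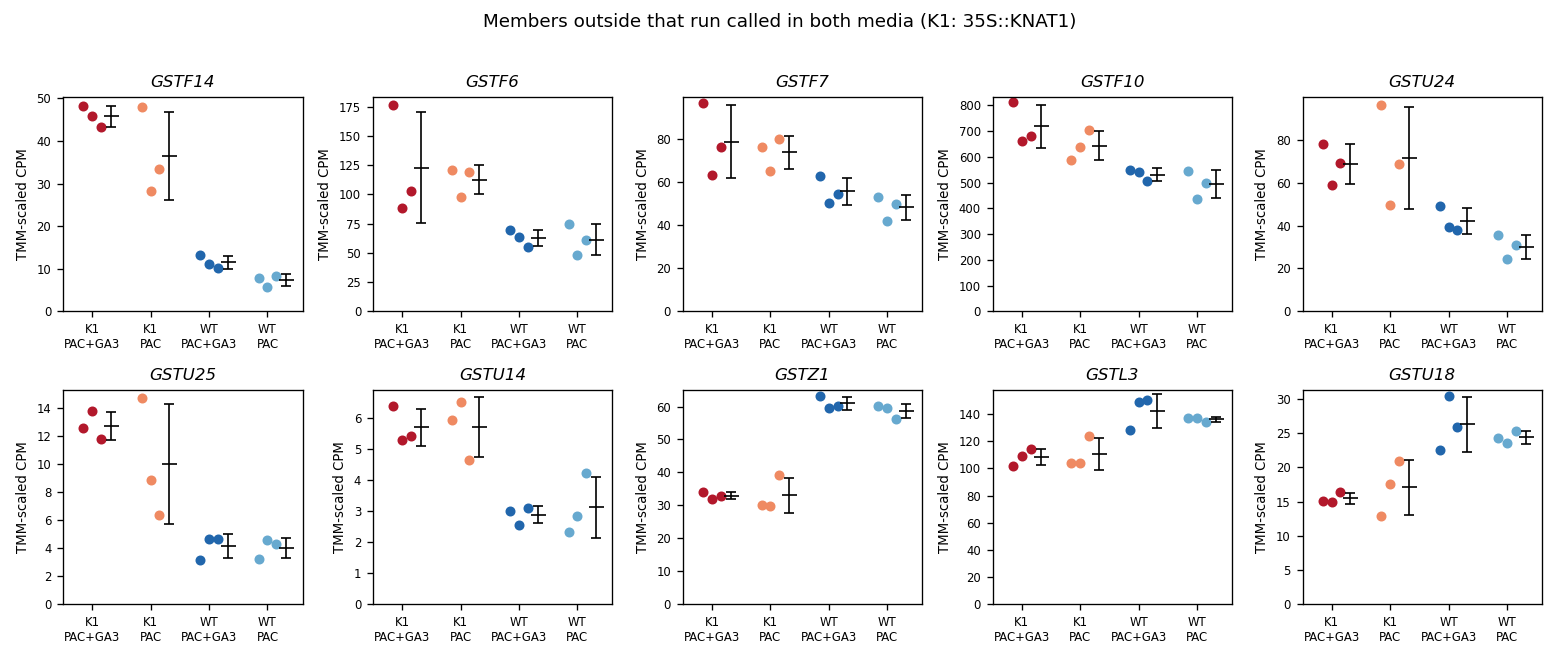
TMM-scaled CPM in each library of the 10 members outside the chromosome 2 run that have a symbol and were called in both media, with the mean and SD beside each group and axes that start at 0. The upper 5 and the left 2 of the lower panels are higher in the 35S::KNAT1 libraries (red and orange), and GSTZ1, GSTL3 and GSTU18 are lower.

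Outside the tau and phi classes, GSTZ1, the maleylacetoacetate isomerase of tyrosine breakdown, had the clearest difference, at 34.1, 32 and 32.9 CPM in 35S::KNAT1, against 63.2, 59.5 and 60.3 CPM in wild type, under PAC+GA3, and 30.2, 29.7 and 39.2 CPM in 35S::KNAT1, against 60.1, 59.5 and 56.1 CPM in wild type, under PAC. No wild-type library reached down to the 35S::KNAT1 range. The log2 difference was -0.89 ± 0.10 (SE, edgeR adjusted p = 1.93e-06) under PAC+GA3 and -0.83 ± 0.10 (adjusted p = 4.52e-06) under PAC, or 1.85-fold and 1.78-fold lower, and the call held in all 20 alternatives. Its partner GSTZ2, which lies next to it on chromosome 2, had 1 to 10 reads a library and was not tested. GSTL3, of the lambda class, had 102, 109 and 114 CPM in 35S::KNAT1, against 128, 149 and 150 CPM in wild type, under PAC+GA3, and 104, 104 and 124 CPM in 35S::KNAT1, against 137, 137 and 134 CPM in wild type, under PAC. The log2 difference was -0.40 ± 0.09 (SE, edgeR adjusted p = 0.00272) and -0.30 ± 0.09 (adjusted p = 0.0203). Under PAC the GSTL3 call was lost without wild-type replicate 2 (-0.29, adjusted p = 0.0595), without 35S::KNAT1 replicates 1 and 2 (-0.25 and -0.25, 0.0946 and 0.099), without the 3 rRNA-rich libraries (-0.30, 0.167) and with scaling to total counts (-0.20, 0.0929).

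The 3 theta genes, a run on chromosome 5, did not pass in either genotype comparison. Neither edgeR nor DESeq2 called any of them, and 0 reached an unadjusted edgeR p of 0.05. Of 19879 genes tested, 7205 reached it under PAC+GA3 and 7196 under PAC. GSTT1 differed by -0.16 ± 0.08 and -0.02 ± 0.08, GSTT2 by 0.07 ± 0.11 and -0.08 ± 0.11, and GSTT3 by 0.05 ± 0.12 and 0.10 ± 0.12 (SE). The 95% interval of GSTT1 ran from -0.35 to 0.02 under PAC+GA3 and from -0.21 to 0.16 under PAC. GSTT2 and GSTT3 share an exact coding run of up to 134 bases, so their separate counts are uncertain. The elongation factor subunit gene eEF-1Bb1 differed by 0.06 ± 0.10 and 0.11 ± 0.10 and AT5G12110 by -0.31 ± 0.14 and -0.21 ± 0.14 (SE), with edgeR adjusted p from 0.131 to 0.738. AT5G12110 passed under PAC+GA3 without 35S::KNAT1 replicate 1 (-0.45, adjusted p = 0.0419), without the 3 rRNA-rich libraries (-0.45, 0.0457) and with the replicate block (-0.32, 0.0163).

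AT1G65820, the microsomal member, was higher under PAC by 0.29 ± 0.08 (SE, edgeR adjusted p = 0.00799) and stood at 0.19 ± 0.07 under PAC+GA3 (adjusted p = 0.0809). Of the genes of no named class, AT5G42150 was higher by 0.32 ± 0.10 (adjusted p = 0.0313) and 0.41 ± 0.10 (adjusted p = 0.0074). AT4G19880 was higher under PAC by 0.30 ± 0.08 (adjusted p = 0.0144) and stood at 0.14 ± 0.08 under PAC+GA3 (adjusted p = 0.239). AT1G77290 had -0.20 ± 0.16 and -0.23 ± 0.16, and AT5G44000 had -0.07 ± 0.08 and 0.00 ± 0.08 (SE). All 3 of the higher genes lost their PAC call without the rRNA-rich libraries (0.20 for AT1G65820, 0.25 for AT5G42150 and 0.27 for AT4G19880, adjusted p from 0.224 to 0.308), and AT5G42150 also lost its PAC+GA3 call (0.22, 0.165). Single libraries also ended calls: AT5G42150 under PAC+GA3 without wild-type replicate 2 or 3 or 35S::KNAT1 replicate 1 or 2 (0.22 to 0.34, adjusted p 0.0548 to 0.18) and under PAC without wild-type replicate 3 (0.33, 0.0502). AT4G19880 lost its PAC call without wild-type replicate 2 or 35S::KNAT1 replicate 1 or 3 (0.24 to 0.27, adjusted p 0.0583 to 0.0809). Under PAC+GA3 AT1G65820 passed without wild-type replicate 2 (0.22, adjusted p = 0.0439) and with scaling to total counts (0.29, 0.00549), as did AT4G19880 with that scaling (0.25, 0.0304).

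The GA3 comparison asked which members changed within 5 h of gibberellin. In 35S::KNAT1, 0 of 47 members passed, where edgeR called 0.111% of all tested genes. An unadjusted edgeR p below 0.05 was reached by 6 of the 47 members and by 1116 of the 19879 genes tested. In wild type 0 members passed, where 0.0453% of all genes did, and 7 of the 47 had an unadjusted p below 0.05, as did 1746 of the 19879 genes. DESeq2 also called 0 members in each genotype. With so few genes called in the whole table, a count of 0 among 47 members is near the background.

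The median log2 difference, PAC+GA3 minus PAC, was 0.06 in 35S::KNAT1 and 0.07 in wild type over all members, against 0.00 and 0.00 over all genes tested. The sign in 35S::KNAT1 turned on 1 library, since without its PAC replicate 2 the median was -0.02, and leaving out its other libraries in turn gave 0.01 (PAC+GA3 replicate 1) to 0.10 (PAC replicate 1). In wild type it was 0.12 without PAC replicate 1 and 0.12 without PAC+GA3 replicate 3. For phi genes it was 0.19 and 0.16, with 9 and 8 of 10 above 0, and for tau genes 0.06 and 0.10. The tau median in 35S::KNAT1 was -0.03 without PAC replicate 2 and 0.18 without PAC replicate 1, and in wild type 0.16 without PAC replicate 1 and 0.15 without PAC+GA3 replicate 1. In wild type the PAC+GA3 libraries of 10 members all lay above the PAC libraries and 0 lay below, where 5.89% of all genes lay wholly above and 5.94% wholly below. In 35S::KNAT1, 6 members lay above and 2 below, where these shares were 6.11% and 6.82%. GSTU4, GSTF8 and GSTF13 lay above in both genotypes. The share of all genes that lay above in both was not counted, and none of these members was called.

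GSTU4 had 12.3, 9.98 and 9.18 CPM under PAC+GA3, against 6.85, 7.02 and 8.19 CPM under PAC, in wild type, and 9.11, 10.8 and 10.5 CPM, against 7.32, 8.97 and 6.88 CPM, in 35S::KNAT1. Its log2 difference was 0.52 ± 0.15 in wild type (SE, edgeR adjusted p = 0.309) and 0.38 ± 0.15 in 35S::KNAT1 (adjusted p = 0.746). GSTF13 had 1.66, 2.06 and 1.93 CPM, against 0.862, 0.979 and 0.846 CPM, in 35S::KNAT1. This difference of 1.05 ± 0.28 (SE, edgeR adjusted p = 0.286) was the largest of the members in 35S::KNAT1 and did not pass. In wild type GSTF14 had the largest, at 0.66 ± 0.21 (adjusted p = 0.389). GSTF13 and GSTF14 in this comparison, GSTF8 and GSTU4 are named for their values.

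With the replicate number as a block, since same-numbered libraries deviated together in this comparison, GSTU8 alone was called, higher in wild type, where 0.246% of all genes were called higher. GSTU8 stood at 110, 75.4 and 77.3 CPM under PAC+GA3, against 79.3, 57.5 and 61.1 CPM under PAC. Each replicate number was higher under PAC+GA3, although the groups overlapped. The log2 difference was 0.41 at an adjusted p of 0.0236 with the block and 0.502 without it (edgeR). Without the block, leaving out wild-type PAC+GA3 replicate 1 gave 0.21 and leaving out the 3 rRNA-rich libraries gave 0.15.

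**Figure D4:**
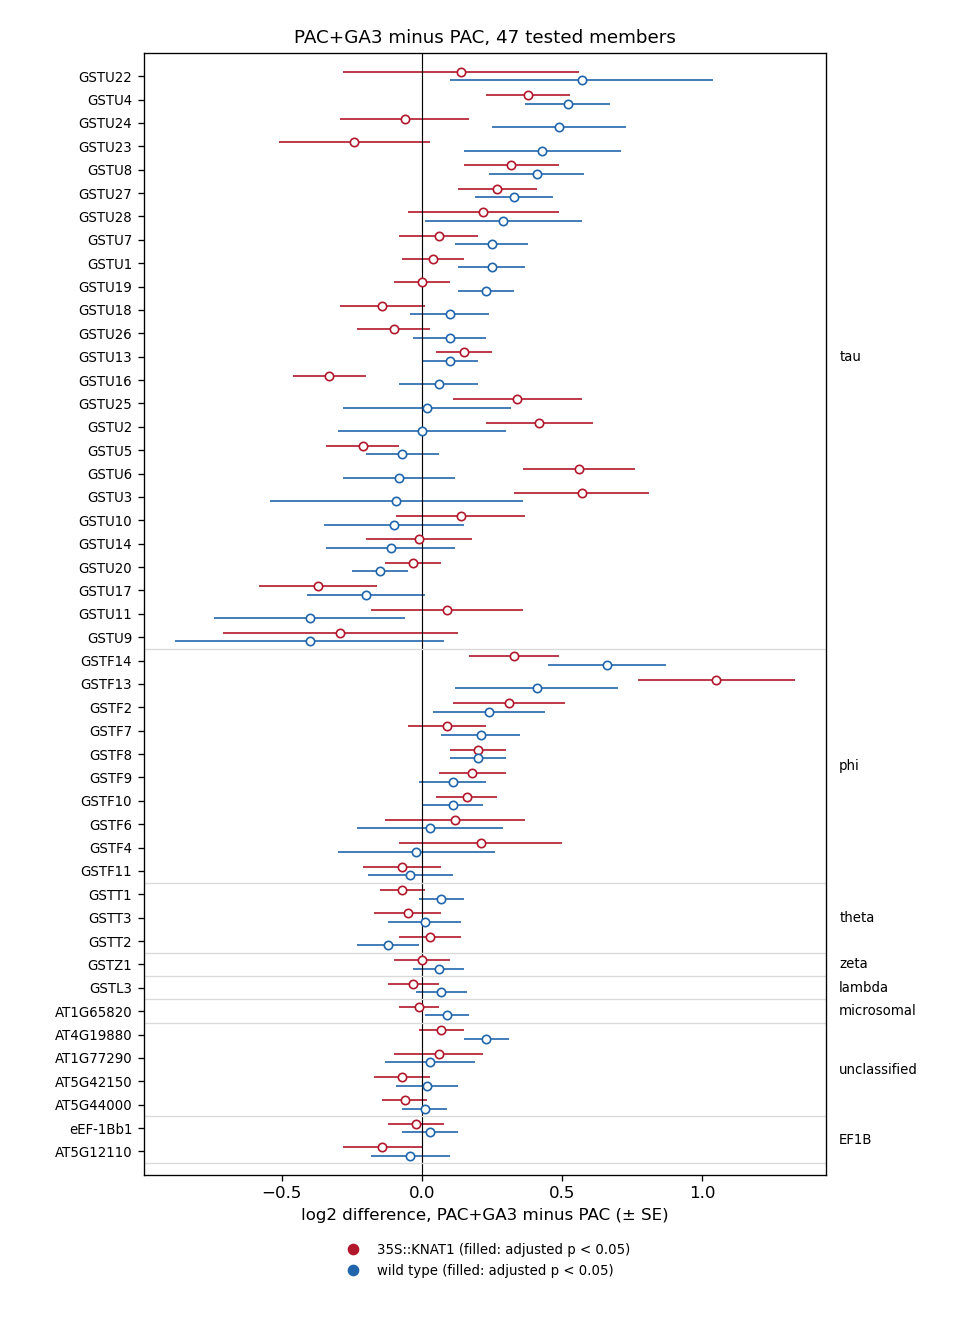
Log2 difference of each of the 47 tested members, PAC+GA3 minus PAC, in 35S::KNAT1 (upper, red) and wild type (lower, blue), with bars for the SE. No circle is filled, since no member reached an edgeR adjusted p below 0.05, and most values lie within 0.5 of 0.

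An interaction term compared the GA3 effect of 35S::KNAT1 with that of wild type, and edgeR and DESeq2 called 0 members in it, where 0% of all genes were called. An unadjusted edgeR p below 0.05 was reached by 1 of 47 members and by 363 of 19879 genes. The member was GSTU6, whose GA3 difference was 0.56 ± 0.20 in 35S::KNAT1 and -0.08 ± 0.20 in wild type (SE). The interaction of GSTU6 was 0.65, with an unadjusted p of 0.0368 and an adjusted p of 1 (edgeR), and a 95% interval of -0.01 to 1.30 on 8 degrees of freedom, which is wider than the interval behind that p. Intervals of the members with large genotype differences were wide. They ran from -0.53 to 1.85 for GSTU3, -0.43 to 1.26 for GSTU2 and -0.94 to 0.28 for GSTF14, so for these genes the data set no narrow bound on a difference in GA3 effect between genotypes. For the abundant GSTF9 and GSTU19 they ran from -0.33 to 0.45 and from -0.58 to 0.10. The genotype comparisons and the GA3 comparisons share libraries, so their values for a gene are not independent.

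Genes that supply glutathione and carry conjugates were read beside the members. Of all tested genes, 12% were higher and 13.6% lower under PAC+GA3, and 12.3% and 12.9% under PAC. In the list for glutathione synthesis and reduction 2 of 7 tested genes rose and 1 fell in 35S::KNAT1 under PAC+GA3, and 3 rose and 1 fell under PAC. APR1, an enzyme of sulfate assimilation, passed under PAC at 0.35 ± 0.12 (SE, edgeR adjusted p = 0.0483), a call lost in 12 of 20 alternatives. GSH1, which makes the first intermediate of glutathione, averaged 455 CPM in 35S::KNAT1, against 354 CPM in wild type, under PAC+GA3, and 456 CPM in 35S::KNAT1, against 341 CPM in wild type, under PAC. Its log2 differences were 0.37 ± 0.08 and 0.42 ± 0.08 (SE, edgeR adjusted p = 0.00355 and 0.00126). Those of GSH2, glutathione synthetase, were 0.54 ± 0.07 and 0.52 ± 0.07 (adjusted p = 2.22e-05 and 3.72e-05). GR2, the glutathione reductase of plastids and mitochondria, was lower, at -0.38 ± 0.09 and -0.41 ± 0.09 (adjusted p = 0.00335 and 0.00179), while GR1 did not pass, at -0.26 ± 0.11 and -0.22 ± 0.11 (adjusted p = 0.084 and 0.151). With the replicate block GR1 passed (-0.26 and -0.22, adjusted p = 0.00493 and 0.0166), and 4 genes of the list were higher and 3 lower under PAC+GA3 and 4 and 2 under PAC. GR1 also passed under PAC+GA3 without 35S::KNAT1 replicate 1 (-0.35, 0.0366) and without the 3 rRNA-rich libraries (-0.35, 0.0328). Without the rRNA-rich libraries GSH1 and GR2 lost their PAC calls (0.31 and -0.34, adjusted p = 0.124 and 0.0996).

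Beside the next lists too, 12% of all tested genes were higher and 13.6% lower under PAC+GA3, and 12.3% and 12.9% under PAC. Of 7 tested glutathione peroxidase genes, 3 were lower under PAC+GA3 and the other 4 did not pass, and 2 were higher and 3 lower under PAC. The PAC count rested on single libraries and was 0 without 35S::KNAT1 replicate 1 and without the rRNA-rich libraries by edgeR, where DESeq2 on all libraries gave 1 higher and 2 lower. GPX1, a plastid member, differed by -0.63 ± 0.15 and -0.48 ± 0.15 (SE, adjusted p = 0.00752 and 0.0361). GPX2 differed by -0.35 ± 0.09 and -0.30 ± 0.09 (adjusted p = 0.00625 and 0.0197), and GPX7 by -1.88 ± 0.52 and -1.98 ± 0.58 (adjusted p = 0.0125 and 0.0178) at means below 1 CPM. The PAC+GA3 calls of GPX1 and GPX2 held in all 20 alternatives, and that of GPX7 was lost by DESeq2 (-1.95, 0.0529) and without 35S::KNAT1 replicate 2 (-1.74, 0.0541) or wild-type replicate 3 (-1.71, 0.0558). ABCC3, a vacuolar transporter of glutathione conjugates, was the 1 of 5 transport and breakdown genes called, higher by 0.72 ± 0.13 and 0.73 ± 0.13 (adjusted p = 0.000628 and 0.000584). Without wild-type PAC+GA3 replicate 2, ABCC1 was also called, lower in both media (-0.27 and -0.24, adjusted p = 0.0258 and 0.027). Of 7 TGA factors and partners TGA3 passed, higher by 0.47 ± 0.11 and 0.59 ± 0.11 (adjusted p = 0.00416 and 0.000678). With the replicate block TGA1 (0.26, adjusted p = 0.0245) was also higher and SCL14, a GRAS protein that acts with TGA factors, lower (-0.25, 0.0442) under PAC, and TGA4 was lower under PAC+GA3 (-0.23, 0.0417). These 3 also passed on leaving out single wild-type libraries, TGA1 (0.33, 0.0461) and SCL14 (-0.32, 0.0466) without PAC replicate 3 and TGA4 (-0.30, 0.0163) without PAC+GA3 replicate 2.

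Detoxification genes outside the family were examined next. Of 10 tested genes of the xenobiotic and oxylipin list, 4 were higher under PAC+GA3 and 6 under PAC, and the others did not pass. Of all tested genes, 12% and 12.3% were higher in these media. Leaving out single libraries gave 3 to 6 higher genes under PAC+GA3 (6 without 35S::KNAT1 PAC replicate 1) and 4 to 7 under PAC (4 without wild-type replicate 2), and 3 were higher in each medium without the rRNA-rich libraries. DTX1, a MATE-type efflux transporter, averaged 12.5 CPM in 35S::KNAT1, against 5.69 CPM in wild type, under PAC+GA3, and 12.7 CPM in 35S::KNAT1, against 4.08 CPM in wild type, under PAC. Its log2 difference was 1.16 ± 0.25 and 1.64 ± 0.26 (SE, edgeR adjusted p = 0.00303 and 0.000318). OPR1, an oxophytodienoate reductase family gene, differed by 0.58 ± 0.14 and 0.95 ± 0.14 (adjusted p = 0.00593 and 0.000123), and UGT73B5, a glucosyltransferase, by 0.77 ± 0.11 and 0.73 ± 0.11 (adjusted p = 2.67e-05 and 5.69e-05). The whole list summed to 602 to 693 CPM and 489 to 762 CPM in 35S::KNAT1, against 478 to 543 and 382 to 438 CPM in wild type, with no overlap in either medium. For GA3 no gene of these lists was called in either genotype without the replicate block. With the block OPR1 was called, higher in wild type by 0.48 (adjusted p = 0.0125, against 0.326 without it).

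**Figure D5:**
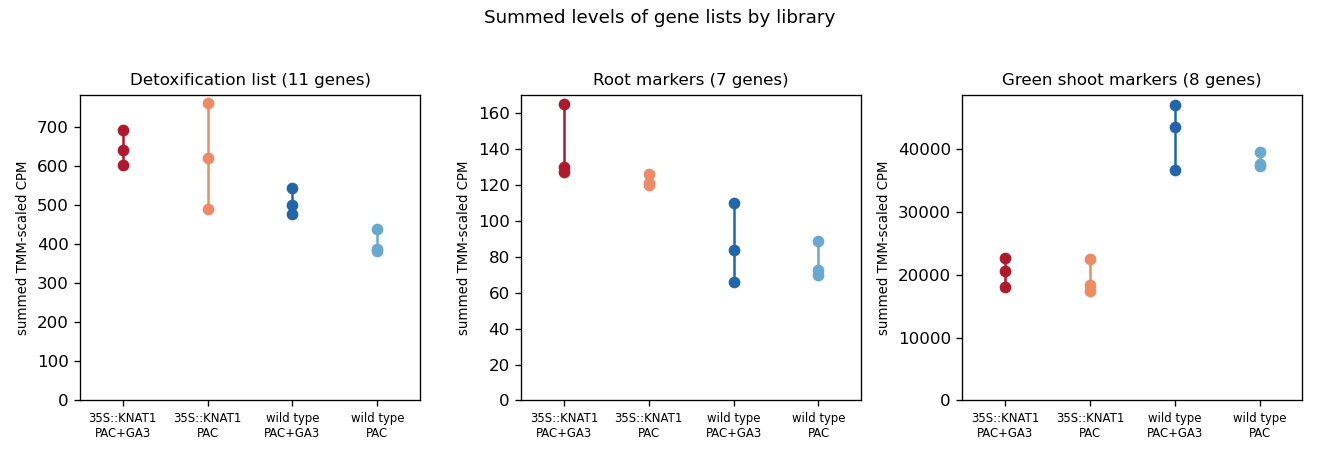
Summed TMM-scaled CPM of the detoxification list, the root markers and the green shoot markers, with 1 point per library, lines that span each group and axes that start at 0. The detoxification and root sums are higher and the green shoot sums lower in 35S::KNAT1 (red and orange) than in wild type (blue) in both media.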

How the data were processed

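Whole-seedling RNA was sequenced in 12 libraries, 3 for each genotype and medium, and grouped by the sample labels. The table the authors deposited gives unnormalised counts of reads for each gene and library, with no pooling. The submitters' processing notes list the TAIR10 build and, without roles, edgeR 3.0.2, DESeq2 1.16.1, TopHat2 2.1, FastQC 0.11.5 and cutadapt 1.8.3. How reads were assigned to genes, and with which strand rule, is not given in the sources used here, so reads of overlapping genes cannot be told apart. Per the labels' protocols, RNeasy and Trizol are both named, as are a stranded and an unstranded TruSeq kit. Reads of No-0 were counted against a Columbia-derived build, and the effect of that was not tested.

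The test was edgeR 4.0.16 (R 4.3.3). Genes were kept by filterByExpr with a minimum count of 10, leaving 19879, libraries were scaled by TMM, and a robust quasi-likelihood model with 4 group means was fitted on all 12 libraries, with a common biological variation of 10.3%. A gene was called at an adjusted p (Benjamini-Hochberg, whole table) below 0.05. The SE of a log2 difference was taken as its size over the root of F, and 95% intervals used 8 degrees of freedom. The code was tested on simulated counts. Replicates of a group differed by more than counting noise (chi-square per degree of freedom 3.75 to 15.03).

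For 24 genes a blank or shared identifier was replaced by the locus at the same position. Gene models, identities and the 250-base windows came from RefSeq's TAIR10.1, whose positions overlapped those of all 55 members. As alternatives, libraries were scaled by total counts or by DESeq2 size factors, the filter was dropped or raised to 5 CPM in 3 libraries, DESeq2 1.42.0 (Wald test) replaced edgeR, and only the groups compared were fitted. A replicate block was added, each library was left out in turn, and the libraries with over 0.3% of counts from an rRNA gene were left out together. Deviations of same-numbered libraries from their group means correlated at 0.169, 0.12 and 0.203 for GA3 in 35S::KNAT1 and 0.359, 0.17 and 0.288 for GA3 in wild type. For genotype they correlated at 0.25, 0.22 and 0.103 under PAC and 0.134, -0.029 and 0.079 under PAC+GA3. The block was fitted to all 12 libraries and took the labels' replicate numbers as pairs in every comparison. The main fit used no pairing.

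Another gene whose description holds these words is not reported here. Members, gene lists, markers and the naming rule were chosen with earlier results of these data known. The rule named KNAT1, members called for GA3 or the interaction, up to 8 called members with the smallest p per direction and genotype comparison, the 3 most abundant tau and phi genes per kb, all tested members of other classes, partners at least 90% identical, members at 0 throughout, and up to 3 called genes per list. GSTF6, GSTF7, GSTF4, GSTF8, GSTF11, the remaining tau genes, the neighbours within runs, GSTU13, GSTU17 and those marked in the text were added after their values were seen.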

Additional observations from a re-analysis of the deposited data

How the results depend on the processing

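Across 20 alternatives, 4546 of 4617 values of the 47 tested members kept their side of the threshold, 49 lost a call, 22 gained one and 0 reversed a called direction. Most of these values had no call to lose, since the main fit called 0 members for GA3 and the interaction. Calls could be lost only by the 12 higher and 4 lower members under PAC+GA3 and the 14 and 3 under PAC. Of the calls lost, 33 came on leaving out a single library and 12 without the 3 rRNA-rich libraries. That alternative gave 7 higher and 1 lower member for genotype under PAC, against 14 and 3, and leaves wild-type PAC with 1 library. For the 51 tested genes of the pathway and marker lists, 91 of 5026 values lost a call, 39 gained one, 12 of these with the replicate block, and 0 reversed. With the block, which takes the labels' numbers as a pairing, 1 member was higher for GA3 in wild type, against 0. Genotype with the block gave 16 higher (34.0%) and 4 lower (8.51%) members under PAC, where 15.5% of all genes were higher and 15.6% lower. Under PAC+GA3 it gave 13 (27.7%) and 5 (10.6%), where 15.5% of all genes were higher and 16.1% lower. The block thus raised the calls in the whole table too. Leaving out single libraries gave 8 to 12 higher and 4 to 5 lower members under PAC+GA3, 11 to 16 and 2 to 3 under PAC, and 0 for GA3 and the interaction. Those fits tested 20052 to 20083 genes. Of these, 1881 to 2525 were higher and 2103 to 2791 lower under PAC+GA3, and 1840 to 2631 and 1984 to 2738 under PAC. In both media the calls of GSTF14, GSTU1, GSTU2, GSTU3, GSTU14, GSTU25 and GSTZ1 held under every alternative. The medians of all members, tau and phi genes moved by more than the replicate spread in 26 of 297 cases. DESeq2 called 12 higher and 4 lower members under PAC+GA3, and 14 and 3 under PAC. Over all 23426 genes it called 2111 higher and 2528 lower under PAC+GA3, and 2172 and 2411 under PAC. Depth limits GSTF13, GSTU22, GSTU11, GSTU23 and GSTU9, with 175 to 312 counts in all, and the 8 members not tested. The wild-type libraries of GSTU3 and GSTU2 also held few reads, 4 to 13 and 8 to 17.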
